A study of Homo sapiens with 9 samples.

Results

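The comparison set out here is that of MKN45 cells carrying an active form of YAP, YAP-S127A, with MKN45 cells carrying the empty vector, described across all genes measured. MKN45 is an established human gastric cancer cell line. The members are 6 of the 9 arrays in the series, chosen by their labels: 3 arrays of YAP-S127A cells and 3 arrays of vector cells. The other 3 arrays, of mock cells, enter only through the estimate of spread and the normalization, and as values set beside a result. RNA from each sample was labelled with biotin and read on Illumina bead arrays with 47231 probes. The labels give the construct and a number for each sample. They do not say how the construct was introduced, whether the cells were a pool or a clone, or whether samples with different numbers came from separate cultures. The spread behind the p-values is that between the samples of a group and may be technical.

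YAP is a coactivator that works in the nucleus, mainly by binding the TEAD transcription factors at gene enhancers and promoters. The Hippo kinases LATS1 and LATS2 phosphorylate YAP at a serine, and the phosphorylated protein is held in the cytoplasm by 14-3-3 proteins. With alanine in its place (S127A) this hold is lost and YAP stays active when the Hippo kinases are on. Matricellular genes such as CCN1 and CCN2 are its best-known targets, and in epithelia YAP is known for its part in regeneration and in the spread of injured or transformed cells.

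All levels below are background-corrected, quantile-normalised log2 signals, so a difference of 1 is a 2-fold change. Differences are YAP-S127A minus vector with the standard error of the fit. A gene is said to have risen or fallen where limma's moderated test over 16180 genes gave an adjusted p (Benjamini-Hochberg) under 0.05. A call is described as stable where it was also made in each fit that left out 1 of the 9 arrays and after scaling the arrays to equal medians, with no overlap between the 3 YAP-S127A and the 3 vector arrays.

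Array medians of the deposited signal were between 107 and 136. The first principal component, with 33.4% of the variance, placed the YAP-S127A arrays between 14.38 and 16.75 and the vector arrays between -9.24 and -4.07. The single listed YAP1 probe was dimmer than the filter, at 6.19, 6.11 and 6.07 in YAP-S127A arrays and 6.02, 5.97 and 6.14 in vector arrays, a difference of 0.08 ± 0.11. These values overlap, and the probe does not check the labels. All 5 epithelial markers were measured, with array means of 12.70 to 12.81 in YAP-S127A cells and 12.24 to 12.38 in vector cells. Of these KRT18 and KRT8 rose, by 1.54 and 0.85, while EPCAM at -0.01, KRT19 at 0.16 and CLDN7 at -0.40 were not called. Array means over 5 fibroblast markers were 6.55 to 6.67 in YAP-S127A cells and 6.37 to 6.46 in vector cells, none of them called, and PDGFRB was under the filter. Of the endothelial markers only PECAM1 passed the filter.

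With active YAP, 559 of 16180 genes changed (3.45%). Of these, 284 rose (1.76% of the genes tested) and 275 fell (1.70%). The 2 directions were close in number and unlike in size. Among the genes that rose, 41 did so by 2-fold or more, all of them stable calls, and 15 exceeded 1.5 on the log2 scale. Among the genes that fell, 3 did so by 2-fold or more and none by 1.5. With the log2 values as deposited 25 rises and 1 fall reached 2-fold, and without background correction 29 rises and 1 fall. The median change was 0.55 over the genes that rose, -0.49 over those that fell and -0.01 over all genes tested. Stable calls numbered 136 higher (0.841% of the genes tested) and 84 lower (0.519%). After scaling to equal medians 433 genes were called and 167 of them were higher, 38.6% of the calls, against 50.8% of the calls after quantile normalization. The number of calls depended on single arrays: 336 without vector replicate 2, 310 without vector replicate 3, 331 without YAP-S127A replicate 1 and 291 without YAP-S127A replicate 2.

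The calls were spread unevenly over probe brightness. The median level was 8.86 in YAP-S127A cells and 8.06 in vector cells for the genes that rose, and 8.77 in YAP-S127A cells and 9.31 in vector cells for those that fell. Over all genes tested it was 7.18 in YAP-S127A cells and 7.19 in vector cells. In 4 bins of 4045 genes from dimmest to brightest, 5 and 51 genes rose in the 2 dim bins and 101 in the brightest, with the other rises in the bin between. Over the same bins 0, 22, 106 and 147 genes fell. The 41 rises of 2-fold or more numbered 0, 12, 18 and 11 over these bins. The YAP-S127A arrays lay wholly apart from the vector arrays for 3668 genes (22.7%), and among the 559 called genes for 555.

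**Figure D1:**
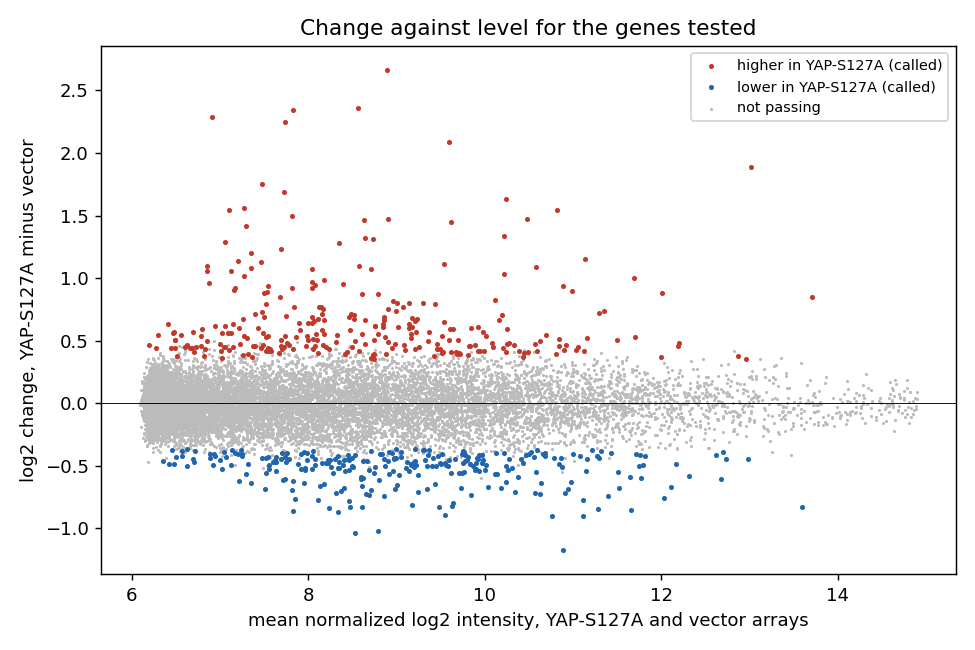
Each point is a gene, with its mean log2 level over the 6 arrays of the comparison on the horizontal axis and the log2 difference, YAP-S127A minus vector, on the vertical axis; coloured points are genes called by limma. Rises extend beyond 2.5, with 1 gene left out of the plot, and only 3 falls pass -1.

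The largest rises span membrane, cytoskeletal, secreted and nuclear proteins. Of the 25 stable calls with the largest rise, 24 are described here. SLC2A3, a high-affinity glucose transporter, had 10.15, 10.12 and 10.42 in YAP-S127A arrays, against 7.34, 7.43 and 7.92 in vector arrays. It rose by 2.66 ± 0.18 (adjusted p = 4.58e-10, limma). Mock arrays held 8.74, 7.76 and 8.18, and the rise over mock was 2.00. CAVIN1, which encodes the coat protein of caveolae, had 9.76, 9.81 and 9.68 in YAP-S127A arrays and 7.41, 7.30 and 7.44 in vector arrays, a rise of 2.36 ± 0.11 (adjusted p = 5.27e-13, limma). In bulk RNA, a larger share of cells carrying active YAP and a larger response per cell cannot be told apart.

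ZBED2, a BED-type zinc finger transcription factor, had 8.12, 8.01 and 8.02 in YAP-S127A arrays, against 5.74, 5.79 and 5.78 in vector arrays. The vector values lie under the filter level of 6.18, so ZBED2 was at least 3.66-fold higher. TNNC1, the calcium-binding troponin subunit of heart and slow skeletal muscle, had 9.02, 8.71 and 8.87 in YAP-S127A arrays and 6.76, 6.54 and 6.55 in vector arrays. It rose by 2.25 ± 0.12 (adjusted p = 7.62e-12, limma). TFAP2C, the transcription factor AP-2 gamma, had 9.59, 9.68 and 9.65 in YAP-S127A arrays and 8.24, 8.20 and 8.05 in vector arrays. Its rise was 1.47 ± 0.11 with a further probe at 1.03 (adjusted p = 2.38e-09, limma). These are stable calls, so by definition no array of one group reached the range of the other.

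Less familiar names stood beside these. C4BPB, the beta chain of the complement regulator C4b-binding protein, had 9.50, 9.33 and 9.27 in YAP-S127A arrays and 7.91, 7.95 and 7.85 in vector arrays, and rose by 1.46 ± 0.10. PRSS23, a serine protease, had 10.37, 10.34 and 10.32 in YAP-S127A arrays and 8.89, 8.94 and 8.85 in vector arrays, and rose by 1.45 ± 0.10. ERP27, an endoplasmic reticulum protein related to the disulfide isomerases, had 7.95, 8.09 and 7.95 in YAP-S127A arrays and 6.60, 6.47 and 6.67 in vector arrays, and rose by 1.42 ± 0.10. In each of these 3 genes the gap between the groups exceeded the range within either. UBASH3B, a tyrosine phosphatase that acts on receptor signalling, rose by 1.28 ± 0.11, with a further probe at 0.88. PHACTR3, a regulator of phosphatase and actin, rose by 1.29 ± 0.11, while its further probes gave 0.13 and 0.73. CCDC9B rose by 1.5 ± 0.12. The imprinted long noncoding RNA H19 had 9.33, 9.20 and 9.64 in YAP-S127A arrays, against 8.21, 7.98 and 8.03 in vector arrays, and rose by 1.32 ± 0.13 (adjusted p = 5.3e-07, limma).

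**Figure D2:**
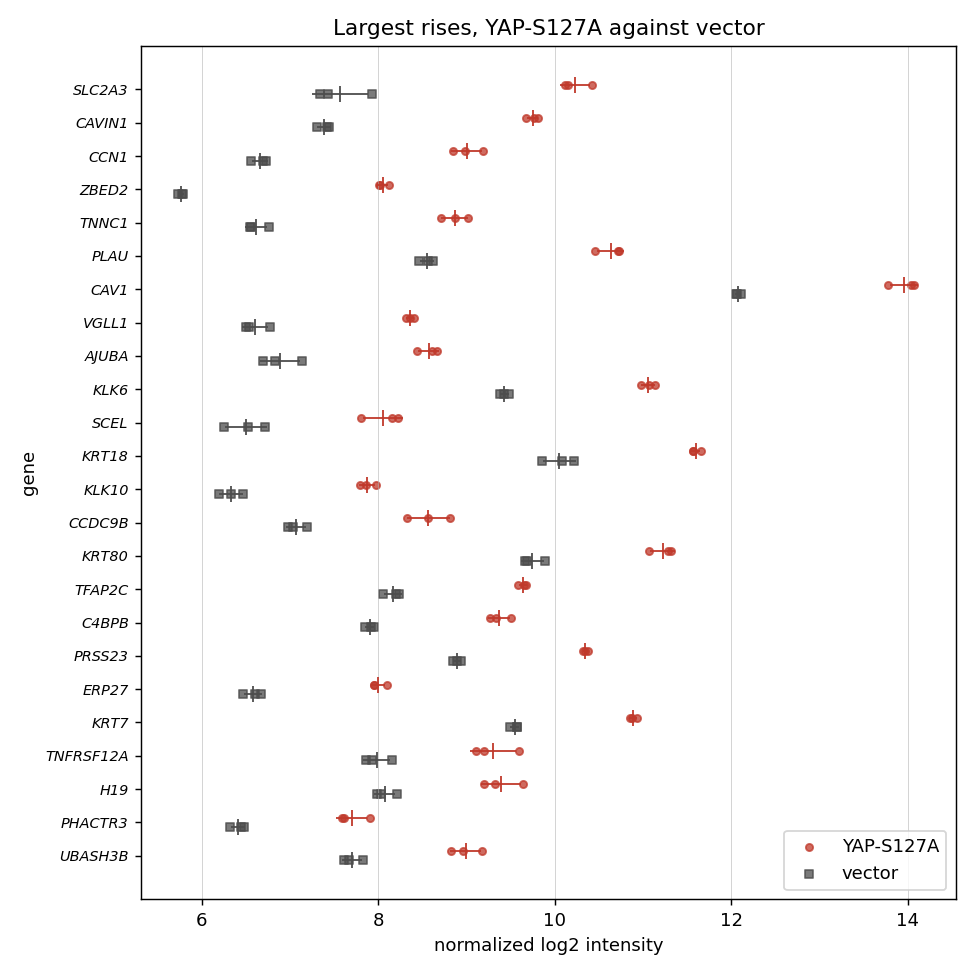
The 24 named genes with the largest stable rises, one per row, with the log2 level of each array on the horizontal axis; red circles are YAP-S127A arrays, grey squares vector arrays, ticks means and bars SD over 3 arrays. In every row the 3 YAP-S127A arrays lie to the right of the 3 vector arrays, which the definition of a stable call requires. SLC2A3 had 10.12 or more against 7.92 or less.

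Known YAP and TEAD targets were higher as far as they were called. Of 19 measured targets 6 rose (31.6%, against 1.76% of the genes tested) and none fell, 4 of the rises were stable, and the list's median change was 0.33, against -0.01 over all genes. Leaving out single arrays gave 4 to 9 rises. CCN1, a secreted matricellular protein, had 9.19, 8.98 and 8.84 in YAP-S127A arrays, against 6.55, 6.73 and 6.70 in vector arrays, and rose by 2.34 ± 0.11 (adjusted p = 1.04e-12, limma). CCN2, its relative that is also called connective tissue growth factor, had 7.95, 8.03 and 7.72 in YAP-S127A arrays, against 6.77, 6.83 and 6.84 in vector arrays. It rose by 1.08 ± 0.11, with a further probe at 0.41. IGFBP3, a carrier of insulin-like growth factors, rose by 0.85 and the tissue factor gene F3 by 0.51. The rises of MYOF at 0.53 and PTPN14 at 0.51 were not stable. The other 13 targets did not pass the test, among them widely used ones, with values of 0.41 for LATS2, 0.38 for FJX1, 0.35 for DOCK5, 0.33 for GADD45A, 0.25 for ANKRD1, 0.20 for AMOTL2 and 0.14 for AXL. Values of -0.10 for NUAK2 and -0.11 for NT5E lay on the other side of 0.

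In the list of genes of the Hippo pathway itself, 5 of 28 rose (17.9%, against 1.76% of the genes tested) and none fell. Of the 5 rises 4 were stable, leaving out single arrays gave 4 to 7, and the median change was 0.19. VGLL1, a cofactor that binds TEAD on the surface that YAP uses, had 8.41, 8.36 and 8.31 in YAP-S127A arrays, against 6.54, 6.5 and 6.78 in vector arrays, and rose by 1.76. AJUBA, a LIM protein that restrains LATS, had 8.66, 8.61 and 8.44 in YAP-S127A arrays and 7.13, 6.70 and 6.83 in vector arrays, a rise of 1.69 ± 0.11, but its further probe gave 0.09. WWC1, the upstream scaffold also called KIBRA, had 10.57, 10.59 and 10.48 in YAP-S127A arrays and 9.75, 9.85 and 9.92 in vector arrays, a rise of 0.71 ± 0.10. TEAD4 itself rose by 0.57 ± 0.10 at its brightest probe. Its further probes gave 0.04 and 0.23, and with the mean of its probes it was not called.

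Promoter sequence was set beside these changes, with the core letters of the TEAD motif, GGAATG, and those of the AP-1 motif, TGANTCA, searched on both strands. The windows run from 250 bases before to 50 bases after the RefSeq start. Stretches with a match upstream of the start were listed for 15 genes with stable rises. Those of the 4 with the largest rises are printed here, on the gene's strand and in GRCh38.p14. Capitals mark the matched letters. The VGLL1 stretch lies at chrX:136532038-136532083, the CCN2 stretch at chr6:131951442-131951561 on the minus strand, the SCEL stretch at chr13:77535637-77535683 and the CXCL8 stretch at chr4:73740412-73740458.
VGLL1: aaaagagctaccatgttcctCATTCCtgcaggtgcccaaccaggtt
CCN2: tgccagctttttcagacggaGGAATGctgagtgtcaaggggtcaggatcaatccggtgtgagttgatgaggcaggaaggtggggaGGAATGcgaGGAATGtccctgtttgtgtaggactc
SCEL: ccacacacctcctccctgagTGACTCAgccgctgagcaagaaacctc
CXCL8: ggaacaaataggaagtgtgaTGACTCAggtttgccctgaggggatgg
The VGLL1 match is on the other strand, 157 bases before the start. CCN2 holds 3 matches between 169 and 95 bases before the start. The AP-1 letters stand 49 bases before the start of SCEL and 137 before that of CXCL8.

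The shares were also counted over all promoters, with no test. GGAATG was present in 29 of 224 genes that rose and have a promoter sequence (12.9%), in 15 of 206 that fell (7.28%) and in 1391 of 12498 tested genes (11.1%). Among the rises of 2-fold or more it was present in 2 of 28 (7.14%). TGANTCA was present in 9 of 224 genes that rose (4.02%), 17 of 206 that fell (8.25%) and 664 of all tested genes (5.31%). Over the RefSeq promoters of all 27305 genes the shares were 14% and 7.76%. A match is a description of the letters, and distant enhancers lie outside these windows.

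Caveolae, the flask-shaped pits of the plasma membrane, were among the groups in which calls ran one way. Of 12 measured genes 4 rose (33.3%, against 1.76% of the genes tested), all stable, none fell, and the count was 4 in each fit that left out 1 array. CAV1, the main caveolin, had 14.07, 14.04 and 13.78 in YAP-S127A arrays, against 12.06, 12.05 and 12.11 in vector arrays. It rose by 1.89 ± 0.11, with a further probe at 2.32. CAV2, its partner, had 12.47, 12.46 and 12.42 in YAP-S127A arrays and 11.62, 11.55 and 11.52 in vector arrays, a rise of 0.88. EHD2, an ATPase at the caveolar neck, rose by 0.70 ± 0.11. With CAVIN1, the 4 genes cover caveolin, coat and neck, while the other 8 measured members did not pass the test and the median of the group was 0.17.

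Actin-linked genes rose as single members of larger groups. Among 20 contractile and thin-filament genes 3 rose (15%, against 1.76% of the genes tested) and none fell, at a median of 0.04. TPM1, a tropomyosin that coats actin filaments, had 11.25, 11.08 and 11.06 in YAP-S127A arrays and 10.14, 10.03 and 9.94 in vector arrays, a rise of 1.09 ± 0.10. Its further probes gave 0.13, 0.18 and 1.03. Among 29 LIM-domain and focal adhesion adaptors 4 rose (13.8%), 2 of them stable. PDLIM1, which tethers proteins to alpha-actinin, had 11.26, 11.46 and 11.35 in YAP-S127A arrays and 10.37, 10.40 and 10.47 in vector arrays, a rise of 0.94 ± 0.11. Leaving out single arrays gave 2 to 4 rises in that list.

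Other actin and tubulin genes also rose. RND3, a small GTPase that loosens stress fibres, had 9.31, 9.31 and 9.12 in YAP-S127A arrays, against 8.03, 8.28 and 8.21 in vector arrays, and rose by 1.07 ± 0.10. DIAPH3, a formin that elongates actin filaments, rose by 0.65, with 3 further probes between 0.43 and 0.48. TUBB6, a beta-tubulin, rose by 0.69, the stable one of 3 rises among 21 tubulins (14.3%, against 1.76% of the genes tested). Without vector replicate 3, or without YAP-S127A replicate 2, 1 tubulin was called. None of 33 collagens, none of 33 kinesins and none of 19 serpins was called by limma. Of 32 matrix and integrin genes 1 was called, ITGB5 at -0.40, and that call was not stable. With 3.45% of the genes tested called, groups of this size would hold few calls or none.

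Keratins, the intermediate filament proteins of epithelia, were called in one direction. Among 31 keratins 5 rose (16.1%, against 1.76% of the genes tested), all stable, and none fell. KRT18 had 11.56, 11.57 and 11.65 in YAP-S127A arrays, against 10.08, 9.85 and 10.22 in vector arrays, a rise of 1.54 ± 0.11 with a further probe at 0.33 (adjusted p = 2.68e-09, limma). KRT8, with which KRT18 pairs in simple epithelia, had 14.13, 14.09 and 14.19 in YAP-S127A arrays and 13.43, 13.32 and 13.11 in vector arrays, a rise of 0.85 ± 0.12 (adjusted p = 6.24e-05, limma). KRT7, a keratin of ductal epithelia, had 10.87, 10.93 and 10.85 in YAP-S127A arrays and 9.57, 9.49 and 9.57 in vector arrays, a rise of 1.34 ± 0.10. KRT80 had 11.29, 11.31 and 11.06 in YAP-S127A arrays and 9.89, 9.66 and 9.68 in vector arrays, a rise of 1.48 ± 0.12 with a further probe at 1.17. KRT4, a keratin of stratified mucosa, was under the filter level in vector arrays and at least 1.31-fold higher. KRT19 was not called, at 0.16.

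In the list of desmosome, keratin and cornified envelope genes 7 of 32 rose and 4 fell, at a median of 0.02. The shares were 21.9% and 12.5%, against 1.76% and 1.70% of the genes tested. The 5 keratins above are among the 7 that rose. Outside the list, SCEL, sciellin of the cornified envelope, had 8.22, 7.80 and 8.15 in YAP-S127A arrays, against 6.52, 6.72 and 6.25 in vector arrays. It rose by 1.56 ± 0.13, with a further probe at 1.59 (adjusted p = 1.71e-08, limma). SFN, the 14-3-3 sigma protein of epithelia, rose by 0.79 ± 0.14 and PPL, periplakin, by 0.64 ± 0.11. In the other direction, SPRR1A averaged 13.18 ± 0.09 in YAP-S127A arrays and 14.01 ± 0.02 in vector arrays (SD, n = 3 each), a fall of 0.83 ± 0.10 (adjusted p = 1.33e-05, limma). SPRR1B fell by 1.02 ± 0.14; the 2 genes are close copies, and their probes may share signal. DSP, desmoplakin, had 10.56, 10.58 and 10.72 in YAP-S127A arrays and 11.10, 11.06 and 11.22 in vector arrays, and it fell by 0.51 ± 0.11. Its further probes gave -0.14 and -0.00, and its difference from mock was -0.32 (adjusted p = 0.0901, limma).

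Claudins, the membrane proteins that seal tight junctions, were called in both directions. Of 19 claudins 1 rose and 2 fell, all 3 stable, while 16 did not pass the test. The median of the family was -0.053. Over all genes tested 1.76% rose and 1.70% fell. CLDN1 averaged 11.73 ± 0.02 in YAP-S127A arrays and 10.98 ± 0.15 in vector arrays (SD, n = 3 each), a rise of 0.74 ± 0.11. CLDN18, the claudin of the stomach, had 7.37, 7.54 and 7.27 in YAP-S127A arrays, against 8.13, 8.15 and 8.48 in vector arrays, a fall of 0.86 ± 0.11, with further probes at -0.33 and 0.02. CLDN2, which forms cation pores, had 7.90, 8.11 and 8.04 in YAP-S127A arrays and 8.86, 8.62 and 8.68 in vector arrays, a fall of 0.70 ± 0.12.

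Genes for extracellular proteolysis rose in a short list of members. PLAU, the urokinase that activates plasminogen, had 10.73, 10.45 and 10.71 in YAP-S127A arrays, against 8.56, 8.46 and 8.62 in vector arrays, and rose by 2.08 ± 0.12. Of 17 plasminogen and coagulation genes 2 rose (11.8%, against 1.76% of the genes tested) and 1 fell (5.88%, against 1.70%). The fall was not stable, 14 genes did not pass the test, and the median was -0.035. F3 was the other stable rise, at 11.64, 11.77 and 11.86 in YAP-S127A arrays and 11.16, 11.36 and 11.23 in vector arrays. Among 33 secreted and membrane proteases 5 rose (15.2%, against 1.76% of the genes tested) and 1 fell. Of the rises 3 were stable, and 3 were called without YAP-S127A replicate 3. The kallikrein-related proteases KLK6 and KLK10 rose by 1.63 ± 0.10 and 1.54 ± 0.11, but a further probe gave -0.01 for KLK6 and 0.00 for KLK10. KLK6 had 11.13, 11.07 and 10.98 in YAP-S127A arrays and 9.42, 9.48 and 9.38 in vector arrays. TMPRSS4, a transmembrane serine protease, fell by 0.73 ± 0.13.

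Secreted signals and their receptors changed in single members of most families. TNFRSF12A, the receptor of the cytokine TWEAK, had 9.59, 9.11 and 9.20 in YAP-S127A arrays, against 7.92, 8.15 and 7.86 in vector arrays, and rose by 1.32 ± 0.12. The neutrophil-attracting chemokine CXCL8 had 8.63, 8.34 and 7.96 in YAP-S127A arrays and 6.98, 7.04 and 7.21 in vector arrays, a rise of 1.23 ± 0.14 with a further probe at 0.57. CXCL1 had 7.65, 7.99 and 8.20 in YAP-S127A arrays and 6.86, 6.81 and 6.57 in vector arrays, a rise of 1.20 ± 0.15. These chemokines had a wide spread among YAP-S127A arrays, and as stable calls their groups do not overlap by definition. Among 40 chemokine, cytokine and receptor genes 4 rose (10%, against 1.76% of the genes tested) and none fell. Among 18 NF-kB subunits and feedback genes only TNFAIP3 rose (5.56%, against 1.76% of the genes tested), at 0.44. That call was not stable, and a list of this size would hold few calls or none.

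In the TGF-beta and BMP list 4 of 24 genes rose (16.7%, against 1.76% of the genes tested) and 1 fell (4.17%, against 1.70%). INHBB, a subunit of activins and inhibins, had 7.45, 7.28 and 7.33 in YAP-S127A arrays and 6.47, 6.34 and 6.37 in vector arrays, a rise of 0.96. FSTL3, which binds and blocks activin, rose by 0.77, and the decoy receptor BAMBI by 0.56. ID2, a BMP-responsive inhibitor of helix-loop-helix factors, had 7.01, 7.09 and 6.98 in YAP-S127A arrays and 7.75, 7.62 and 7.63 in vector arrays, a fall of 0.64 ± 0.12. IGFBP1, a second carrier of insulin-like growth factors, had 7.35, 7.47 and 7.37 in YAP-S127A arrays and 6.37, 6.32 and 6.21 in vector arrays, a rise of 1.09 ± 0.10. Of 9 genes for EGF-family ligands and receptors none rose and 1 fell (11.1%, against 1.70% of the genes tested). That call, of ERBB3 at -0.42, was not stable, and a list of this size would hold few calls or none. The ligand gene EREG had a difference of 0.13 ± 0.11.

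WNT, Notch and guidance genes were called in both directions. Of 35 WNT genes 4 rose (11.4%) and 2 fell (5.71%), and of 21 Notch genes 2 rose (9.52%) and 2 fell (9.52%). Of 42 guidance genes 4 rose (9.52%) and 1 fell (2.38%). Over all genes tested the shares were 1.76% and 1.70%. Leaving out single arrays gave 2 to 4 rises in the WNT list, 1 to 2 in the Notch list and 2 to 4 in the guidance list. FZD2, a WNT receptor, had 8.77, 8.60 and 8.65 in YAP-S127A arrays, against 7.67, 7.73 and 7.67 in vector arrays, and rose by 0.98 ± 0.13. WNT10A, a ligand, rose by 0.70 ± 0.11. LGR4, the R-spondin receptor, had 10.84, 10.89 and 10.92 in YAP-S127A arrays and 11.35, 11.50 and 11.41 in vector arrays, a fall of 0.54 ± 0.11; against mock its difference was -0.29 (adjusted p = 0.142, limma). SEMA3B, a secreted semaphorin, rose by 0.97 ± 0.12, with a further probe at 0.45. EPHA2, an ephrin receptor, rose by 0.63 ± 0.11. DLL3, a Notch ligand that inhibits signalling in the cell that makes it, rose by 0.56 ± 0.11. The receptor NOTCH3 at -0.44, the Notch-modifying enzyme LFNG at -0.41 and the semaphorin SEMA4B at -0.42 were called without being stable.

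Transcription factors and kinase feedback genes with stable rises were few. FOSL1, the AP-1 subunit Fra-1, had 8.25, 8.28 and 8.15 in YAP-S127A arrays, against 7.54, 7.33 and 7.51 in vector arrays, a rise of 0.77 ± 0.11. EGR1, an immediate early factor, had 8.88, 8.84 and 8.57 in YAP-S127A arrays and 8.10, 8.23 and 8.21 in vector arrays, a rise of 0.59 ± 0.12. Of 25 AP-1 and immediate early genes 5 rose (20%, against 1.76% of the genes tested) and 1 fell (4%, against 1.70%). Of the rises 2 were stable, leaving out single arrays gave 3 to 5, and the median of the list was -0.01. ATF3 at 0.68 and MYC at 0.57 were called without being stable. DUSP5, a nuclear phosphatase of ERK, had 8.65, 8.40 and 8.60 in YAP-S127A arrays and 7.64, 7.58 and 7.60 in vector arrays, a rise of 0.94 ± 0.10. DUSP14 rose by 0.68, while DUSP6, the cytoplasmic ERK phosphatase, was called at -0.42 without being stable.

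In the SOX, FOX and KLF families of transcription factors the calls were falls. Of 67 measured, none rose and 6 fell (8.96%, against 1.70% of the genes tested), 3 of them stable, with 3 to 6 falls when single arrays were left out. SOX21 had 9.44, 9.52 and 9.45 in YAP-S127A arrays, against 10.28, 10.26 and 10.08 in vector arrays, a fall of 0.73 ± 0.10 (adjusted p = 5.68e-05, limma). FOXA2, a pioneer factor of the gut endoderm, had 11.27, 11.23 and 11.20 in YAP-S127A arrays and 11.72, 11.75 and 11.89 in vector arrays, a fall of 0.55. SOX2, a factor of the stomach lining, had 7.43, 7.37 and 7.38 in YAP-S127A arrays and 7.89, 7.90 and 7.81 in vector arrays, a fall of 0.47 ± 0.10. Its further probe gave -0.09, it was not called with the mean of its probes, and its difference from mock was -0.28 (adjusted p = 0.119, limma). KLF4, KLF13 and KLF9 were called at -0.49, -0.43 and -0.40, and these calls were not stable.

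**Figure D3:**
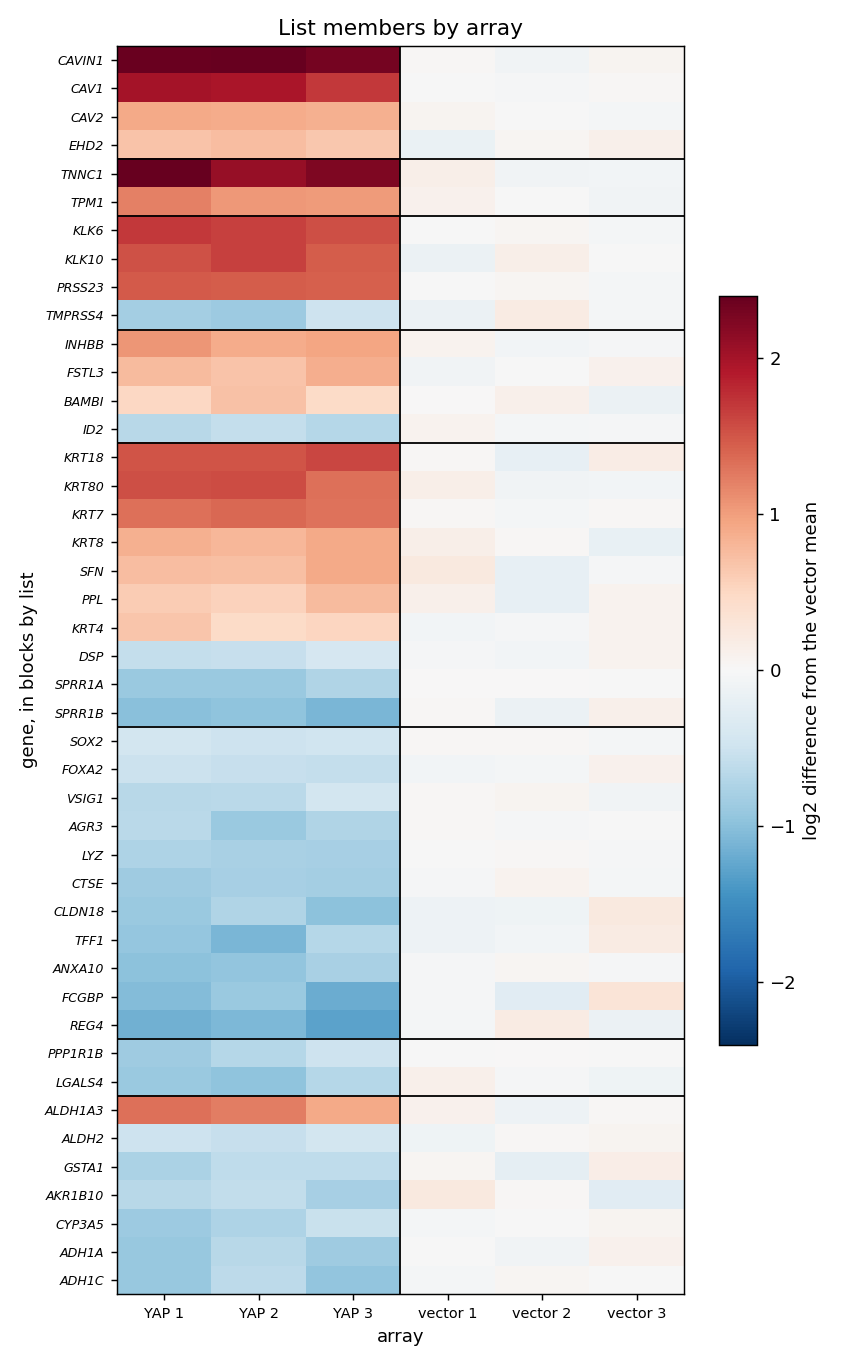
Log2 difference of each array from the vector mean for 44 stable list members in 8 groups, with the 3 YAP-S127A arrays left of the 3 vector arrays; the colour scale ends at 2.4 on either side. The rows of caveolae, at the top, are all positive in YAP-S127A arrays and those of the 11 stomach genes all negative. Only stable calls are drawn, so each row keeps 1 sign in the YAP-S127A arrays by definition. List members that did not pass are left out. TMPRSS4, ID2 and ALDH1A3 run against their blocks, and the desmosome and keratin block holds 7 rises and 3 falls.

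Genes of the gastric surface fell together. Of 28 measured stomach and surface mucus genes, 11 fell (39.3%, against 1.70% of the genes tested) and none rose. All 11 falls were stable, the count was 11 or 12 in each fit that left out 1 array, and the median change of the list was -0.31, against -0.01 over all genes. REG4, a secreted lectin of the gut, had 10.32, 10.40 and 10.19 in YAP-S127A arrays, against 11.43, 11.67 and 11.33 in vector arrays, and fell by 1.17 ± 0.11 (adjusted p = 3.22e-07, limma). FCGBP, a protein of mucus, had 8.02, 8.17 and 7.86 in YAP-S127A arrays and 9.03, 8.78 and 9.36 in vector arrays, and fell by 1.04 ± 0.13. TFF1, the trefoil peptide of gastric pit cells, had 10.29, 10.12 and 10.53 in YAP-S127A arrays and 11.08, 11.14 and 11.40 in vector arrays, and fell by 0.90 ± 0.13. As these are stable calls, the groups do not overlap by definition.

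ANXA10, an annexin of gastric epithelium, had 10.57, 10.62 and 10.79 in YAP-S127A arrays, against 11.54, 11.60 and 11.53 in vector arrays, and fell by 0.90 ± 0.10. Its relative ANXA3 had 10.77, 10.66 and 10.78 in YAP-S127A arrays and 9.68, 9.79 and 9.63 in vector arrays, a rise of 1.04, so 2 annexins moved in opposite directions. CTSE, the aspartic protease cathepsin E of gastric surface cells, averaged 9.22 ± 0.03 in YAP-S127A arrays and 10.04 ± 0.07 in vector arrays (SD, n = 3 each). It fell by 0.82 ± 0.11, with further probes at -1.0 and -0.31. LYZ, lysozyme, had 10.76, 10.72 and 10.71 in YAP-S127A arrays and 11.50, 11.53 and 11.48 in vector arrays, a fall of 0.77 with a further probe at -0.25. LYZ also stands in the leukocyte marker list, where CD68 differed by 0.05; array means over the 4 measured leukocyte markers were 8.21 to 8.29 in YAP-S127A cells and 8.36 to 8.47 in vector cells. AGR3, a disulfide isomerase of secretory cells, had 11.76, 11.52 and 11.69 in YAP-S127A arrays and 12.44, 12.39 and 12.41 in vector arrays, a fall of 0.76, and its further probe gave -0.32. VSIG1, an adhesion protein of the stomach, fell by 0.59. SLC26A9, a chloride transporter of gastric surface cells, was under the filter level on average in YAP-S127A arrays and at least 1.40-fold lower, and its difference from mock was -0.24 (adjusted p = 0.222, limma).

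Intestinal genes showed the same direction in fewer members. Of 26 measured, 5 fell (19.2%, against 1.70% of the genes tested) and 1 rose (3.85%, against 1.76%). Of the falls 2 were stable, and leaving out single arrays gave 2 to 5. LGALS4, a galectin of the gut epithelium, had 11.19, 11.11 and 11.39 in YAP-S127A arrays, against 12.20, 12.06 and 11.98 in vector arrays, and fell by 0.85 ± 0.11. PPP1R1B fell by 0.68 at its brightest probe and was not called with the mean of its probes. The calls of CDH17, CEACAM5 and MYO1A, each at -0.44, were not stable.

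Enzymes that build mucin-type sugars and glycolipids fell in 5 of 45 genes (11.1%, against 1.70% of the genes tested) and rose in 1. Of the falls 2 were stable, and 3 were called without YAP-S127A replicate 1 or without YAP-S127A replicate 3. GCNT1, which branches O-glycan cores, had 8.34, 8.27 and 8.28 in YAP-S127A arrays, against 9.02, 9.02 and 9.01 in vector arrays, and fell by 0.72 ± 0.10, with a further probe at -0.42. SLC35A2, the UDP-galactose transporter of the Golgi, fell by 0.79 at its brightest probe, but its further probes lay between -0.10 and -0.03 and it was not called with the mean of its probes. A4GALT, the synthase of the glycolipid Gb3, had 7.69, 7.71 and 7.55 in YAP-S127A arrays and 6.58, 6.59 and 6.60 in vector arrays, a rise of 1.06 ± 0.11. Of 34 hyaluronan and proteoglycan genes 3 rose (8.82%, against 1.76% of the genes tested) and 4 fell (11.8%, against 1.70%). In each direction 2 were stable, and leaving out single arrays gave 2 to 3 rises and 2 to 4 falls. The heparan sulfate carrier GPC1 rose by 0.69 ± 0.12 and the sulfotransferase HS6ST2 by 0.53 ± 0.10. CEMIP, which takes part in the breakdown of hyaluronan, had 10.72, 10.73 and 11.13 in YAP-S127A arrays and 11.55, 11.63 and 11.95 in vector arrays, a fall of 0.85 ± 0.13. GPC4, a relative of GPC1, at -0.50 and the hyaluronan receptor CD44 at -0.45 were called without being stable.

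**Figure D4:**
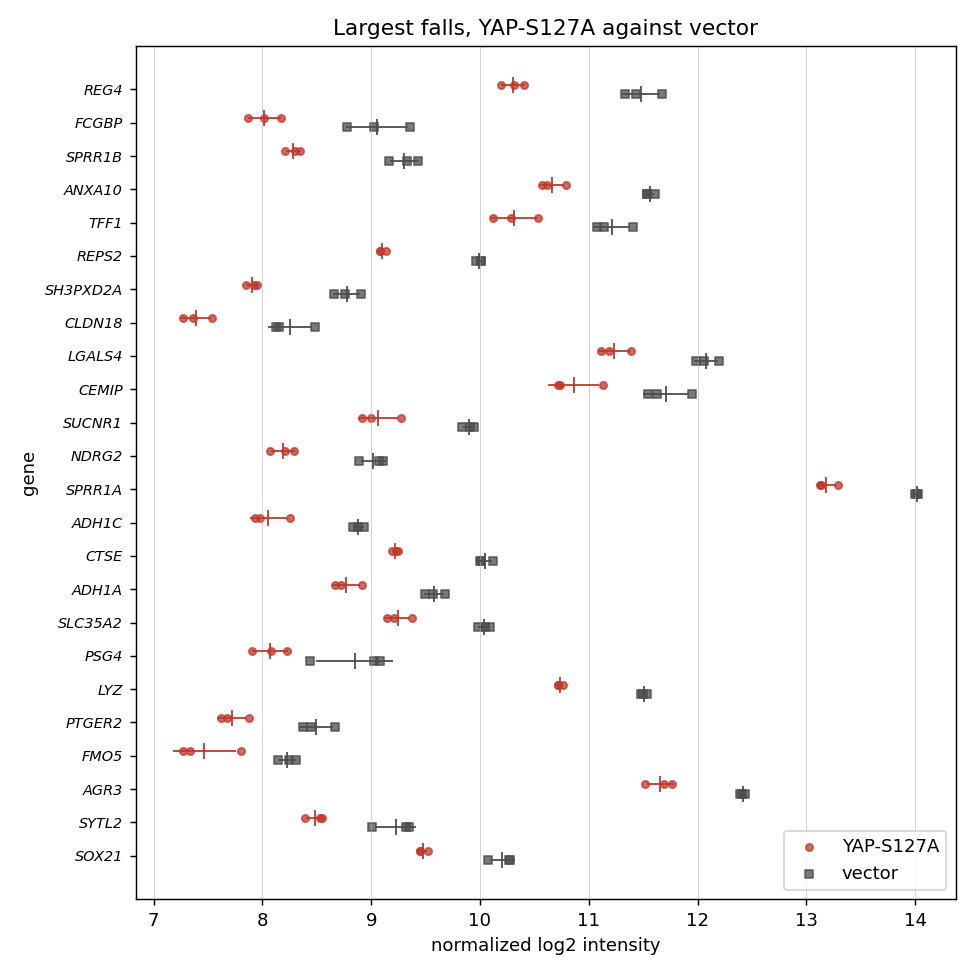
The 24 named genes with the largest stable falls, one per row, with the log2 level of each array on the horizontal axis; red circles are YAP-S127A arrays, grey squares vector arrays, ticks means and bars SD over 3 arrays. In every row the YAP-S127A arrays lie to the left of the vector arrays, which the definition of a stable call requires. REG4 had 10.40 or less against 11.33 or more.

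Alcohol, aldehyde and xenobiotic metabolism gave the next block of falls, with 11 of 46 genes lower (23.9%, against 1.70% of the genes tested) and 3 higher, at a median of -0.13. Of these calls 6 falls and 1 rise were stable. Leaving out single arrays gave 6 to 12 falls, the fewest without YAP-S127A replicate 1, and 1 to 3 rises. The alcohol dehydrogenase ADH1C had 7.98, 8.25 and 7.93 in YAP-S127A arrays, against 8.83, 8.94 and 8.87 in vector arrays, a fall of 0.83 ± 0.11. ADH1A fell by 0.81 ± 0.11; the 2 neighbouring genes are near copies, and their probes may share signal. CYP3A5, a cytochrome of drug oxidation, had 8.73, 8.86 and 9.07 in YAP-S127A arrays and 9.54, 9.59 and 9.65 in vector arrays, a fall of 0.71 ± 0.11. AKR1B10, an aldo-keto reductase, fell by 0.69 ± 0.12, the glutathione transferase GSTA1 by 0.66 ± 0.11 and the mitochondrial aldehyde dehydrogenase ALDH2 by 0.50 ± 0.10. GSTA1 has near copies too, and its further probes gave -0.76 and -0.65. FMO5, a flavin monooxygenase outside the cytochromes, fell by 0.76 ± 0.13. GPX2, the glutathione peroxidase of the gut, fell by 0.67.

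Within the same chemistry ALDH1A3, which makes retinoic acid, ran against the list. It had 11.88, 11.78 and 11.47 in YAP-S127A arrays, against 10.66, 10.43 and 10.58 in vector arrays, and rose by 1.15. Glucose genes likewise did not follow SLC2A3. Among 39 genes of glucose transport, glycolysis and hypoxia SLC2A3 alone rose and 4 fell (10.3%, against 1.70% of the genes tested). The median was -0.11, and leaving out single arrays gave 1 to 7 falls. CA12, a carbonic anhydrase at the cell surface, had 9.21, 9.54 and 9.42 in YAP-S127A arrays and 9.89, 10.17 and 10.14 in vector arrays, and its fall of 0.67 ± 0.12 was the stable one. NDRG1 at -0.58, PFKFB4 at -0.53 and SLC2A10 at -0.45 were called without being stable. SRM, spermidine synthase, averaged 9.70 ± 0.26 in YAP-S127A arrays and 8.90 ± 0.06 in vector arrays (SD, n = 3 each), a rise of 0.80 ± 0.14.

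Membrane receptors and transport proteins complete the larger falls. SUCNR1, the succinate receptor, had 9.0, 9.27 and 8.92 in YAP-S127A arrays, against 9.94, 9.84 and 9.90 in vector arrays. It fell by 0.83 ± 0.11, with a further probe at -0.86 (adjusted p = 1.91e-05, limma). PTGER2, a receptor of prostaglandin E2, had 7.62, 7.88 and 7.67 in YAP-S127A arrays and 8.66, 8.44 and 8.38 in vector arrays, a fall of 0.77 ± 0.11. REPS2, an adaptor of receptor endocytosis, had 9.08, 9.08 and 9.13 in YAP-S127A arrays and 9.96, 10.01 and 10.01 in vector arrays, a fall of 0.89 ± 0.10, and each of its 6 further probes was negative, between -0.93 and -0.36. ATP1B1, the beta subunit of the sodium pump, had 12.29, 12.32 and 12.53 in YAP-S127A arrays and 13.21, 12.93 and 12.81 in vector arrays, a fall of 0.60 with a further probe at -0.65. The sodium-proton exchanger SLC9A2 fell by 0.64. SH3PXD2A, a scaffold of invadopodia, fell by 0.87 ± 0.10, and NDRG2 by 0.83 ± 0.12 with a further probe at -0.32. SYTL2 at -0.74 was lost as a call with the mean of its probes, and its difference from mock was -0.27 (adjusted p = 0.203, limma). PSG4 at -0.78 was also lost with the mean of its probes; PSG genes are near copies of each other. Over 312 solute carriers 8 rose and 8 fell, shares of 2.56% each, near the 1.76% and 1.70% of all genes tested. Of these calls 2 rises and 5 falls were stable, and leaving out single arrays gave 2 to 9 rises and 5 to 10 falls.

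The lists of cell cycle genes held few calls or none. None of 40 mitosis genes was called by limma, and their differences ran from -0.13 to 0.32 with a median of 0.09. With 3.45% of the genes tested called, a list of this size would hold few calls or none. Among 47 DNA replication genes 3 rose (6.38%, against 1.76% of the genes tested), MCM5 at 0.55, CDC45 at 0.42 and SLBP at 0.41. The median was 0.14. None of these calls was stable, leaving out single arrays gave 1 to 4, and none remained after scaling to equal medians. CDK6, a kinase of cell cycle entry, had 9.69, 9.37 and 9.31 in YAP-S127A arrays and 8.76, 8.86 and 8.84 in vector arrays, a rise of 0.63 ± 0.11. PLK2, a polo-like kinase, rose by 0.73 ± 0.13, the stable and sole call among 27 p53 targets (3.7%, against 1.76% of the genes tested). None of 35 oxidative phosphorylation genes, 31 genes of the unfolded protein and heat shock response and 38 lysosome and autophagy genes was called by limma. Their medians were 0.01, 0.01 and -0.02. Given the share of 3.45% over all genes, these lists too would hold few calls or none. Among 45 interferon and antigen presentation genes 3 rose (6.67%, against 1.76% of the genes tested) and 2 fell (4.44%, against 1.70%). Leaving out single arrays gave 2 to 3 rises and 0 to 2 falls. The rises were IFITM2 at 0.89, IFITM3 at 0.72 and IFITM1 at 0.44, antiviral membrane proteins that are neighbours and close copies.

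**Figure D5:**
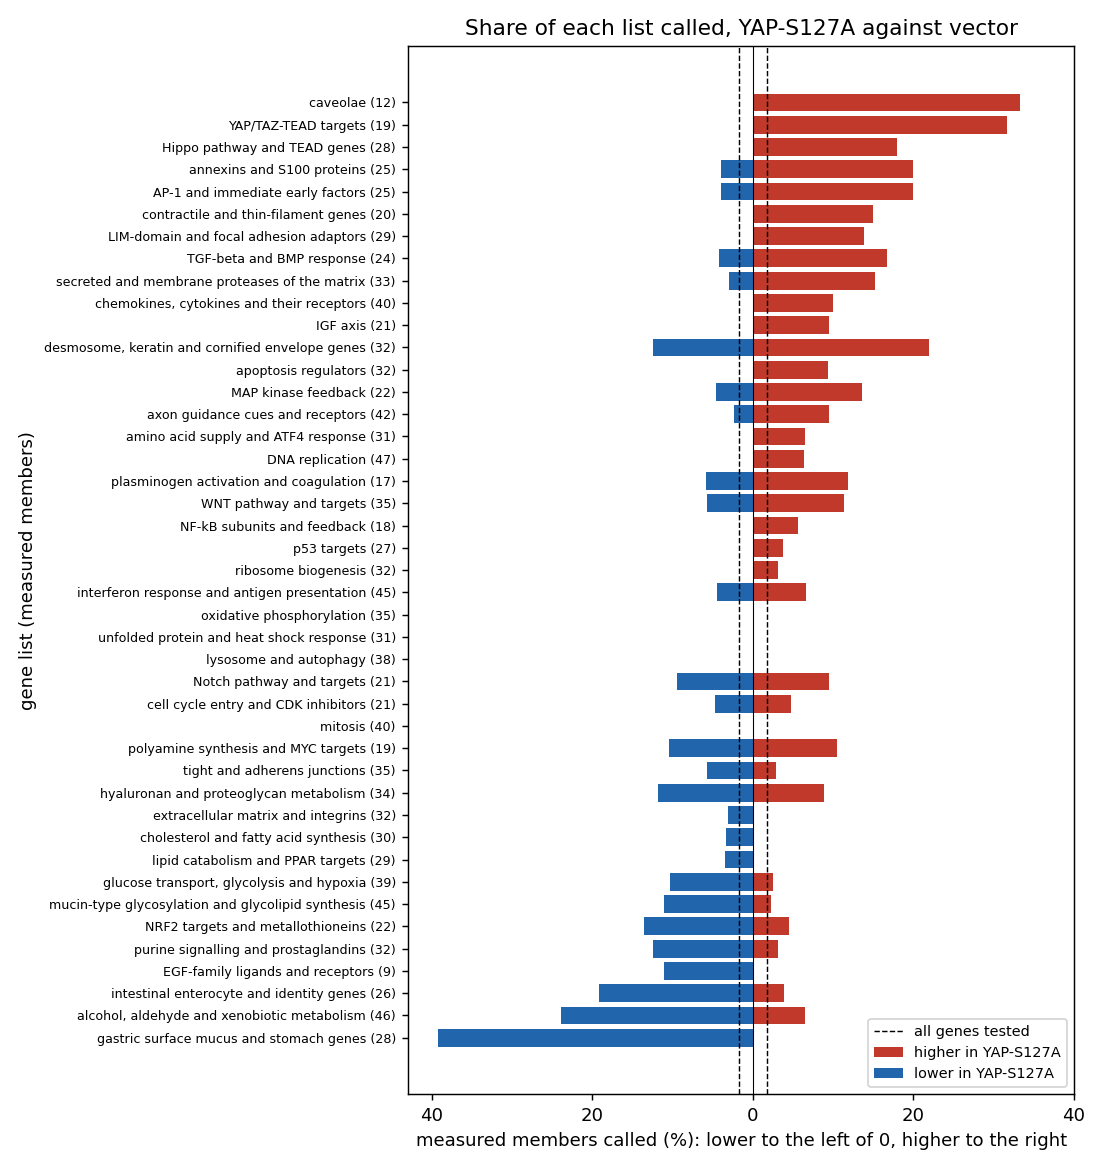
Share of the measured genes of each list called by limma, with genes higher in YAP-S127A cells to the right of 0 and genes lower to the left; dashed lines mark the shares over all genes tested, 1.76% higher and 1.70% lower. The list of stomach genes extends farthest to the left, at 39.3%, and caveolae and YAP/TAZ-TEAD targets farthest to the right, at 33.3% and 31.6%.

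Most called genes lay outside these groups. Of the 559, 166 were in a list, 224 in a list or a family named by symbol, and 335 in none, of which 110 were stable calls. The lists hold 1269 of the 16180 genes tested, so a larger share of list members was called than of all genes. The lists were chosen with earlier results of these data known. The following genes were chosen after their values were seen. GADD45B, a stress sensor, had 7.90, 7.88 and 8.32 in YAP-S127A arrays, against 6.86, 6.76 and 7.09 in vector arrays, and rose by 1.13 ± 0.13. Secreted factors also rose in stable calls. FGF2 had 7.93, 8.08 and 8.03 in YAP-S127A arrays and 7.17, 6.88 and 7.19 in vector arrays, a rise of 0.93 with a further probe at 0.21. FGFBP1, which releases FGF2 from the matrix, had 8.82, 8.94 and 8.76 in YAP-S127A arrays and 8.25, 8.24 and 7.90 in vector arrays, a rise of 0.71. The vasoconstrictor EDN1 had 9.42, 9.32 and 9.34 in YAP-S127A arrays and 8.48, 8.70 and 8.70 in vector arrays, a rise of 0.74. UPK3B, a uroplakin of urothelium and mesothelium, rose by 1.11, the kinase subunit PRKAG2 by 1.10 and SPNS2, the exporter of sphingosine 1-phosphate, by 1.07. Further probes gave -0.18, 0.71, 0.94 and 1.05 for UPK3B, and 0.05 and 0.78 for PRKAG2. NNMT, which methylates nicotinamide, rose by 0.96. The RNA-binding paralogs RBMS1 and RBMS2 rose by 0.80 and 0.88, with further probes of RBMS1 at 0.19, 0.25 and 0.72. Among the falls were the transcription factors MECOM at -0.69, MEIS2 at -0.59 and MYB at -0.56. Further probes gave -0.10 and -0.01 for MECOM and -0.22 for MEIS2. The iron transport genes HEPH and SLC40A1, which encode hephaestin and ferroportin, fell by 0.61 and 0.55, with further probes at -0.19 and -0.21.

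By biotype, 278 of 14658 protein-coding genes rose and 270 fell, and 3 of 613 long noncoding genes rose and 3 fell. Over all 16180 genes tested 284 rose (1.76%) and 275 fell (1.70%). The protein-coding shares lay close to these, and the long noncoding shares lay below them. Beside H19, MIR503HG, the host gene of a microRNA cluster, rose by 0.54, and COLCA1 fell by 0.62. PMS2P4, a pseudogene of the mismatch repair gene PMS2, averaged 12.19 in YAP-S127A cells and 11.19 in vector cells, and signal from its parent gene cannot be told apart from its own. By position, 31 of 16088 pairs of neighbouring tested genes were both called, 15 with both higher, 10 with both lower and 6 in opposite directions. Whether this number exceeds that for genes in random order was not tested. Pairs that rose included CAV2 with CAV1, KRT8 with KRT18, KRT80 with KRT7 and IGFBP1 with IGFBP3. Pairs that fell included ADH1A with ADH1C, GSTA2 with GSTA1 and SLC26A9 with CTSE.

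Further probes give a second reading of many called genes. Of 104 genes that rose and have further probes above the filter, all further probes were higher in 84 and none in 7. Of 98 genes that fell, all were lower in 74 and none in 12. Among all 4788 tested genes with further probes, all had the sign of the brightest probe in 2469 and none in 1655. Such probes read the same RNA samples and are no further replicates.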

How the data were processed

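Gene expression was measured in MKN45 cells on 9 Illumina bead arrays, 3 each of YAP-S127A, vector and mock. The deposited intensity values are non-normalized probe signals; the submitters' processing notes name BeadStudio, without a version. The authors' deposited log2 values of the same arrays, whose normalization is not given in the sources used here, served as an alternative; they ranked probes as the signals of the same sample did.

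Signals were corrected with normexp (offset 50), transformed to log2 and quantile normalized over the 9 arrays. Probes under the lower quartile of mean level (6.18) were left out, which kept 35423 of 47231. Platform annotation gave 1 gene symbol for 30113 probes, several for 8 and none for 17110; 30074 symbols were brought to current names. Each gene was represented by its brightest probe. One limma model (limma 3.58.1, R 4.3.3) over the 9 arrays, with 6 residual degrees of freedom and a prior of 16.4, gave the differences, standard errors and Benjamini-Hochberg adjusted p. Log2 differences of dim genes understate folds; where a group mean lay under the filter level, the fold against that level is given as a lower bound. The number of arrays limits the precision.

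The naming rule took the 25 largest stable changes and the 5 brightest stable calls in each direction, and up to 5 stable members of each list described. It also took genes crossing the filter level, measured YAP/TAZ-TEAD targets and cell type markers. Genes named outside this rule, in any paragraph, were chosen after their values were seen. Of the 25 falls, 1 has an open reading frame number for a name and is only counted. The comparison, the gene lists and the rule were chosen with earlier results of these data known. Some genes that the rule names, and 1 of the gene lists, are not reported here. The fit was tested on simulated data. Promoters are RefSeq sequences of GRCh38.p14.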

Additional observations from a re-analysis of the deposited data

Results flagged for a closer look

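Probes with no gene in the platform annotation were outside the comparison of genes, and 1 of them stood furthest above its level in vector arrays. Probe ILMN_2387385 had 9.28, 9.35 and 9.36 in YAP-S127A arrays, against 6.78, 6.54 and 6.47 in vector arrays, a difference of 2.74 ± 0.11 on the log2 scale (adjusted p = 3.07e-15, limma over 35423 probes). Of 12698 unnamed probes above the filter 133 were called, 83 higher and 50 lower in YAP-S127A cells. Over all 35423 probes kept 745 were called, so unnamed probes were called less often than probes as a whole. Probes ILMN_3178307 and ILMN_1661628 followed at 2.37 and 2.33.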

How the results depend on the processing

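The 559 calls became 271 at an adjusted p under 0.01 (161 higher, 110 lower). After scaling to equal medians 167 genes were higher. Leaving out single arrays gave 291 to 735 calls, 175 to 380 higher and 116 to 355 lower; the lowest counts came without YAP-S127A replicate 2 and the highest without mock replicate 1. Counts within 1.5 times of the main ones came from the log2 signals without background correction (678), the log2 values as deposited (666), dim probes kept in (554), probe averages per gene (493), the 6 arrays of the comparison alone (785) and trend and robust moderation (615). Replicate numbers did not pair the samples: deviations of same-numbered arrays correlated at 0.005, -0.007 and 0.069, and only number 3 correlated best with its own number. With the replicate number as a block 558 genes were called, 283 higher and 275 lower. Over 150 genes taken by the naming rule and the alternatives, 2509 values kept their side of the threshold. A further 32 lost the call, 9 gained it and no call changed sign. Genes named outside the rule were not in this count. Values called in neither fit were counted as kept whatever their sign. Many of the named genes were chosen as stable, which fixed their calls in the leave-one-out and equal-median fits. Probe signal near background limits the size of change that can be called in dim genes.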
